A study of Homo sapiens with 6 samples.

Results

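The genes described here are the claudins and the other proteins that build the tight junction. They were chosen by name from the deposited table, as every gene named CLDN with a number, TJP genes such as TJP1 and TJP3, MARVELD1 to MARVELD3, and OCLN, F11R, JAM2, JAM3, CGN, CGNL1, PARD3, PARD6B, CRB3, PATJ and LSR. These names found 41 of 19973 listed genes, of which 24 were claudins and 17 were other members. RNA was sequenced from cells labelled OVCAR3, an established cell line of human ovarian cancer, that carried either the control hairpin shNC or shNUF2, a short hairpin RNA against the kinetochore gene NUF2. The labels give the genotype as WT for the shNC cells and as NUF2 knockdown for the others, name no time of harvest, and give 3 libraries per group. The study's methods describe transfection with a lipid reagent of hairpins cloned into a plasmid with a puromycin marker, with 1 hairpin against NUF2. Stable lines were also made, and whether the sequenced cells came from them is not stated. Whether the libraries of a group came from separate cultures is not given, and the p-values then measure the spread between these libraries, which may be technical. The libraries held from 14115009 to 16995452 counted reads with shNC and from 13057534 to 15227460 with shNUF2.

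Tight junctions seal the space between neighbouring epithelial cells and keep the apical and basolateral membranes apart. Claudins are the membrane proteins that form the strands of the seal, and which claudins a cell makes sets how tight the seal is and which ions pass it. Occludin, MARVELD2 and MARVELD3 lie in the same strands, angulins such as LSR mark the corners where several cells meet, and the zonula occludens scaffolds such as TJP1 and TJP3 and cingulin tie the strands to actin. The Par and Crumbs polarity complexes, which include PARD3, PARD6B, CRB3 and PATJ, place the junction at the border of the apical membrane.

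The target of the hairpin was checked against the labels before the junction genes were compared. NUF2 had 903, 1096 and 1092 reads with the control hairpin and 281, 290 and 384 with shNUF2, and its log2 fold change was -1.51 (edgeR's quasi-likelihood test, Benjamini-Hochberg adjusted, standard error 0.08, adjusted p = 2.17e-15). ERBB3, the receptor the study followed up, had 2188 to 2501 reads with shNC and 588 to 713 with shNUF2. Several markers of the labelled cell type were nearly absent. Among 11 epithelial and ovarian carcinoma markers, WFDC2 had at most 1 read, WT1 at most 7 and KRT19 at most 8 in any library, and E-cadherin (CDH1), the adhesion protein of epithelial junctions, had 9 to 33 reads. KRT7, KRT8, KRT18, MUC16, MUC1 and PAX8 were present, with KRT8 between 4967 and 10296 reads. Of the 11 markers 8 were tested, and 4 rose (50.0%, against 33.9% of all genes tested) and 2 fell (25.0%, against 33.8%). The summed level of the 11 markers was 243 to 279 FPKM with shNC and 288 to 315 FPKM with shNUF2. The part of this difference in the junction genes was not tested. The line is therefore called OVCAR3 by its label only, and its identity was not tested.

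Of the 41 genes, 35 had at least 1 read and 21 had enough reads to be tested, namely 8 claudins and 13 other members. A gene was called higher or lower when its log2 fold change (shNUF2 minus shNC) was above 1 or below -1 with an unadjusted p under 0.05, the thresholds of the study read on the log2 scale. By this rule CLDN4, CLDN12 and CGN were called higher, 3 of the 21 tested members, where 9.41% of the 12874 genes tested were called higher. CLDN7 was the 1 member called lower, where 4.16% of all genes tested were. At any size of change, 7 members rose with a Benjamini-Hochberg adjusted p under 0.05 in edgeR's quasi-likelihood test (33.9% of all genes tested rose), 4 fell (33.8% of all genes tested fell) and 10 did not pass. For 10 of the 21 members the shNUF2 libraries did not overlap the shNC libraries, against 70.6% of all genes tested. As shares of the 21 members, 14.3% were called higher, 4.76% were called lower, 33.3% rose, 19.0% fell and 47.6% did not overlap, so that the shares that rose or were called lower were near those of all genes. The median log2 fold change was -0.01 for the members and -0.01 for all genes tested. In bulk RNA, fewer cells that make a transcript and less of it per cell cannot be told apart.

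**Figure D1:**
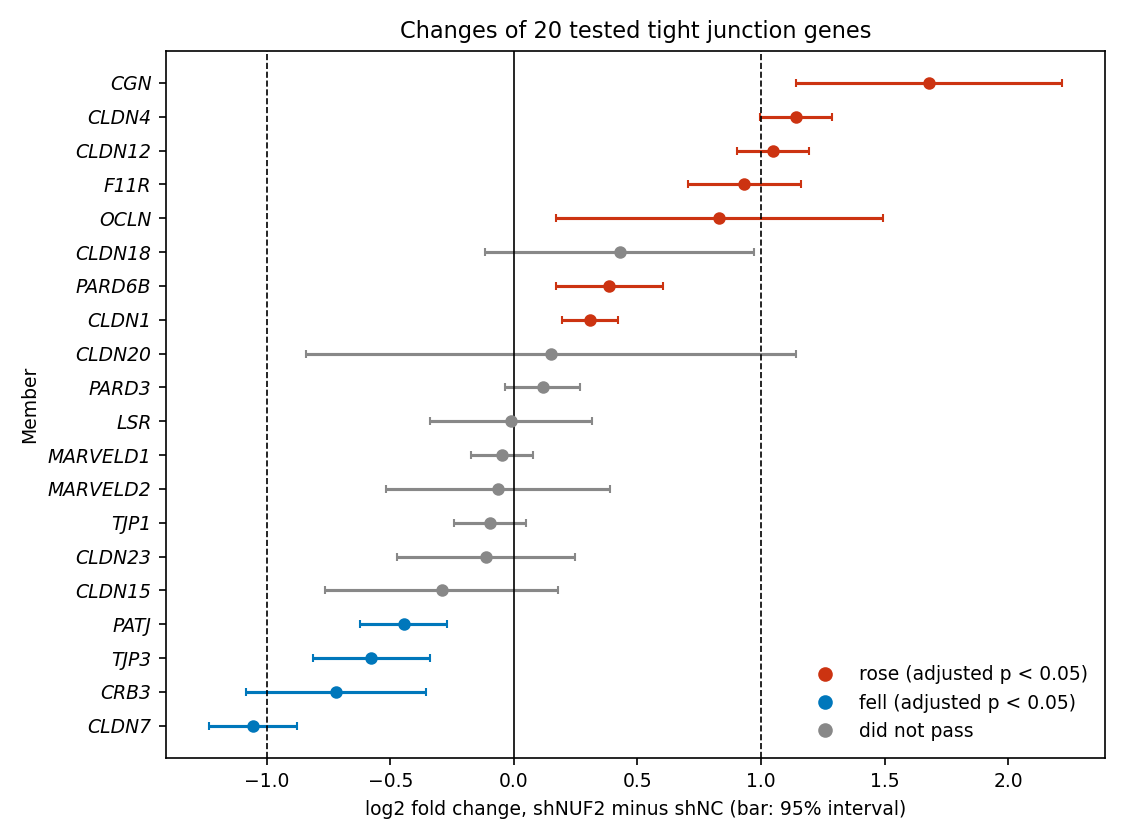
Log2 fold change of 20 of the 21 tested members (horizontal axis, shNUF2 minus shNC, with the 95% interval of the fit; dashed lines at -1 and 1). CGN, CLDN4 and CLDN12 lie beyond 1, CLDN7 lies beyond -1, and the intervals of the 9 grey genes include 0.

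Levels of different genes are compared as FPKM, the reads scaled by the length of the gene and by the total of the library. With shNC the member with the highest mean was MARVELD1 at 27.3 ± 2.84 FPKM (SD, n = 3), followed by CLDN7 at 19.0 ± 1.07 and CLDN1 at 18.2 ± 0.474. The library ranges of CLDN7 and CLDN1 overlapped, so their order is not resolved. CLDN4 (6.75 ± 0.636), CLDN12 (6.62 ± 0.691), PARD3, CRB3, TJP3, PARD6B and TJP1 followed between 6.75 and 4.45 FPKM, and each overlapped the next in this order. With shNUF2 MARVELD1 was still the highest at 25.7 ± 0.304 FPKM, CLDN1 was second at 22.0 ± 0.891, and CLDN4 (14.5 ± 0.418) and CLDN12 (13.3 ± 0.966) came next with overlapping ranges. CLDN7 had moved from rank 2 to rank 5, at 8.88 ± 1.01 FPKM, with a range apart from those of CLDN12 above it and PARD3 below it. Occludin, a defining part of the junction in most epithelia, was at 0.212 FPKM with shNC, next to CGN at 0.241.

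**Figure D2:**
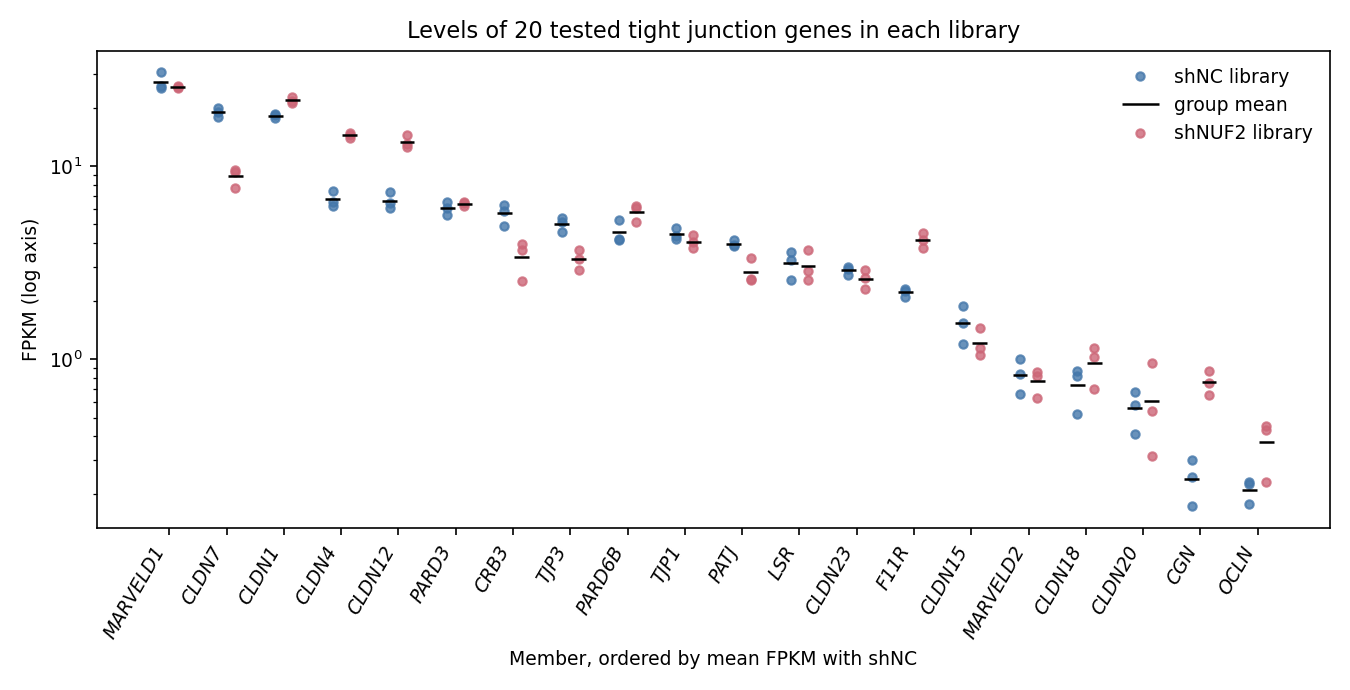
FPKM of 20 of the 21 tested members in each of the 6 libraries (log axis, points are libraries, black lines are group means of 3). The shNUF2 points lie above the shNC points for CLDN4, CLDN12, F11R and CGN and below them for CLDN7, CRB3, TJP3 and PATJ, while MARVELD1 lies between 25.4 and 30.6 FPKM in all libraries.

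CLDN4, a claudin that tightens the barrier against sodium and is abundant in many carcinomas, lies on chromosome 7 of GRCh38 from 73799542 to 73832693. It had 495, 484 and 498 reads under shNC, and 941, 913 and 1005 under shNUF2. All shNUF2 libraries were close to each other and well above all shNC libraries. Its log2 fold change was 1.14, a ratio of 2.20 (standard error 0.07, edgeR's quasi-likelihood test, Benjamini-Hochberg adjusted p = 1.22e-13).

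CLDN12, an unusual claudin without the motif by which most claudins bind PDZ scaffolds, lies on the same chromosome from 90383721 to 90513402. It had 700, 638 and 732 reads in control (shNC) libraries and 1336, 1138 and 1287 with shNUF2, without overlap. The log2 fold change was 1.05 (standard error 0.07, Benjamini-Hochberg adjusted p = 6.54e-13 from the same edgeR test), so it passed the fold threshold narrowly. It was 0.99 without shNC replicate 2 and 0.98 without shNUF2 replicate 1, below the threshold. In GENCODE release 29, 16.3% of its exonic bases are shared with other genes of the same strand, among them CDK14 and GTPBP10, and how shared reads were counted is not given. CDK14 was itself listed with 56, 57 and 94 reads with the control hairpin and 136, 97 and 137 with shNUF2, and GTPBP10 with 258, 332 and 324 against 219, 205 and 237. Their part in the value of CLDN12 was not tested.

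CLDN7, which binds the adhesion protein EPCAM in epithelia and also lies along the lateral membrane, is on chromosome 17 from 7259903 to 7263983. It had 706, 702 and 804 reads with the control hairpin and 329, 251 and 355 with shNUF2. All shNUF2 libraries were below all shNC libraries. The log2 fold change was -1.06, a ratio of 0.481 (standard error 0.09, edgeR's quasi-likelihood test, Benjamini-Hochberg adjusted p = 3.80e-11). Without shNUF2 replicate 2, the lowest library, the log2 fold change was -0.96 and CLDN7 was no longer beyond the fold threshold, with adjusted p = 4.36e-09 in the same test. The gene AC003688.1 on the same strand shares 10.8% of its exonic bases and was listed with 0 reads in every library.

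CLDN1, a claudin without which the barrier of the skin fails, had 905, 1059 and 1131 reads in control (shNC) libraries and 1088, 1004 and 1267 with shNUF2. The raw counts overlapped, but after scaling to library size each shNUF2 library was above each shNC library. The log2 fold change was 0.31 (standard error 0.06, Benjamini-Hochberg adjusted p = 2.25e-05 in edgeR's quasi-likelihood test), well inside the fold threshold.

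The remaining tested claudins did not pass. CLDN23 had 92, 93 and 108 reads with the control hairpin and 69, 74 and 95 with shNUF2, and its log2 fold change of -0.11 had a 95% interval from -0.47 to 0.25. For CLDN15, a claudin that forms a sodium channel in the intestine, the log2 fold change was -0.29 with an interval from -0.76 to 0.18, and for CLDN18, a claudin of stomach and lung, it was 0.43 with an interval from -0.12 to 0.97. CLDN20 had 5 to 16 reads in a library and an interval from -0.84 to 1.14, which excludes neither a rise past the fold threshold nor a fall that stays short of it.

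A share within a library does not depend on the scaling between libraries, so the make-up of the claudins was also compared as the share of the summed claudin FPKM that each took. CLDN7 took 33.9%, 32.2% and 34.1% with shNC and 14.4%, 12.3% and 14.2% with shNUF2. CLDN4 took 12.6%, 11.8% and 11.2% with shNC and 21.8%, 23.7% and 21.2% with shNUF2. CLDN12 took 12.5%, 10.9% and 11.5% with shNC and 21.7%, 20.7% and 19.1% with shNUF2. The groups did not overlap for any of these claudins, and the shares of CLDN4 and CLDN12 were both higher with shNUF2 while that of CLDN7 was lower (exact two-sided permutation test over the libraries, p = 0.10 for each, the smallest that 3 against 3 libraries allow). CLDN1 took 32.1% ± 1.93 with shNC and 33.7% ± 1.05 with shNUF2, with overlapping libraries (SD, n = 3, exact permutation p = 0.30). Its direction depended on the measure, since by summed reads its share changed by -3.30 percentage points with shNUF2.

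Together CLDN7, CLDN1, CLDN4 and CLDN12 made up 88.9% ± 0.661 of the claudin FPKM with shNC and 90.0% ± 0.799 with shNUF2 (SD, n = 3, exact permutation p = 0.20). The summed FPKM of all 24 claudins was 56.9 ± 2.04 with shNC and 65.1 ± 2.18 with shNUF2, a ratio of 1.15 without overlap of the libraries (n = 3, exact permutation p = 0.10). The FPKM ratio of CLDN4 to CLDN7 was 0.355 ± 0.0234 with shNC and 1.65 ± 0.242 with shNUF2, so that it was 4.64 times as large (SD, n = 3, exact permutation p = 0.10). The ratio of CLDN4 to CLDN12 was 1.02 ± 0.0568 with shNC and 1.09 ± 0.0735 with shNUF2, with overlapping libraries (n = 3, exact permutation p = 0.30). The claudin total thus differed by less than any of the called claudins did, while the order of the claudins within it changed.

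**Figure D3:**
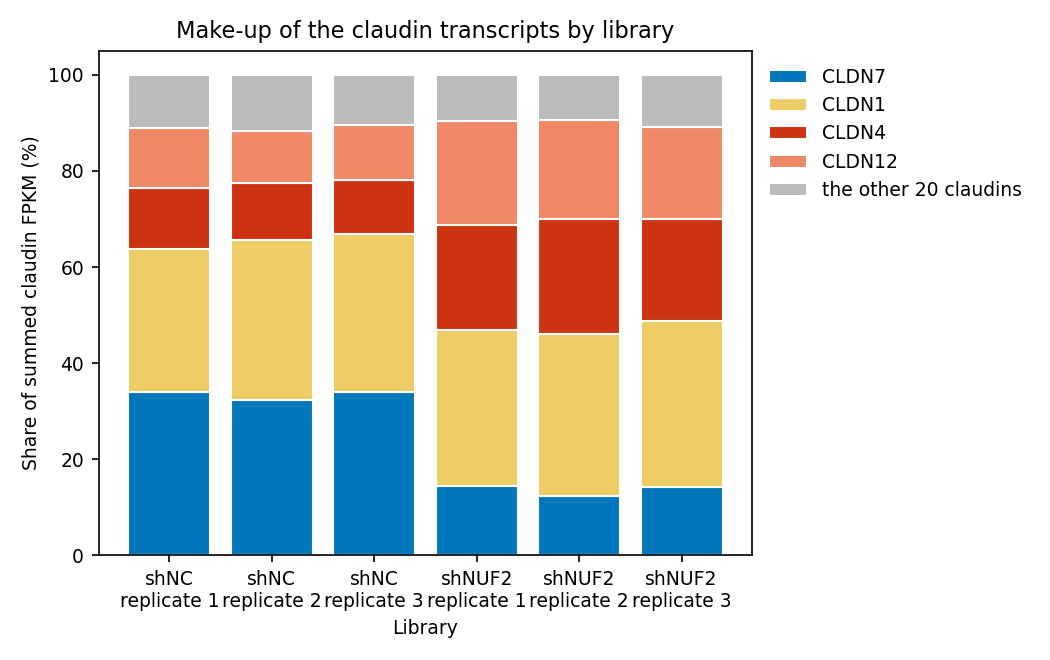
Share of the summed claudin FPKM (vertical axis, %) taken by CLDN7, CLDN1, CLDN4, CLDN12 and the other 20 claudins in each library. CLDN7 narrows from 32.2 to 34.1% with shNC to 12.3 to 14.4% with shNUF2, and CLDN4 and CLDN12 widen.

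Of the 24 claudins, 16 did not have enough reads to be tested. CLDN3, which is commonly raised in ovarian carcinoma and lies 29271 bases from CLDN4 on chromosome 7, had 0 reads in every library, and so did CLDN8, CLDN17, CLDN22, CLDN25 and CLDN34. All exonic bases of CLDN22 (100%) are shared with WWC2 on the opposite strand, so its 0 is uncertain where the counting settings are not given. A count of 0 allows up to 3 reads, which for CLDN3 is at most 0.180 FPKM in the shallowest library. CLDN9 had 2, 7 and 1 reads in control (shNC) libraries and 9, 8 and 9 with shNUF2. The ratio was 2.97 after division by the TMM-scaled library sizes (95% interval 1.39 to 6.90, which covers counting error only). CLDN6, the close neighbour of CLDN9 at 206 bases on chromosome 16, had 0 reads in all shNC libraries and 2, 3 and 2 with shNUF2, all within the limit that a count of 0 allows. CLDN10, a claudin of kidney ion channels, had 8, 7 and 11 reads with the control hairpin and 4, 0 and 8 with shNUF2, and DZIP1 on the opposite strand shares 46.1% of its exonic bases. CLDN2, CLDN5, CLDN11, CLDN14, CLDN16 and CLDN19 reached between 4 and 11 reads in a library, and CLDN24 had 1 read in all. CLDN1 and CLDN16 start 94 bases apart on opposite strands of chromosome 3, with at most 4 reads of CLDN16 beside 905 or more of CLDN1.

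Among the MARVEL proteins, occludin (OCLN), the first membrane protein known from tight junctions, had 22, 19 and 26 reads in control (shNC) libraries and 42, 38 and 24 with shNUF2. In FPKM the lowest shNUF2 library (0.233) only just cleared the highest shNC library (0.231). OCLN rose by a log2 fold change of 0.83 (standard error 0.32, Benjamini-Hochberg adjusted p = 0.024 in edgeR's quasi-likelihood test). This rested on single libraries. The adjusted p in that test was 0.088 without shNC replicate 2, 0.12 without shNUF2 replicate 1 and 0.095 without shNUF2 replicate 2, and it was 0.055 with limma on log2 of FPKM plus 1. Without shNUF2 replicate 3 the log2 fold change was 1.09, past the threshold for a call. The annotation lists a pseudogene, OCLNP1, that could share its reads.

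MARVELD1, which has the MARVEL domain of these proteins without being a classical strand protein, was the highest of all members and had 1455, 1343 and 1491 reads with the control hairpin and 1206, 1116 and 1325 with shNUF2. Its log2 fold change was -0.05 with a 95% interval from -0.17 to 0.08. MARVELD2 (tricellulin), the protein of the corners between cells, had a log2 fold change of -0.06 and an interval from -0.52 to 0.39, and MARVELD3 had at most 8 reads. LSR, the angulin that brings tricellulin to these corners, had 148, 118 and 162 reads in control (shNC) libraries and 104, 140 and 128 with shNUF2, with overlapping libraries and a log2 fold change of -0.01 (95% interval -0.34 to 0.32).

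Of the junctional adhesion molecules, immunoglobulin-like proteins that help to start the junction, only F11R (JAM-A) was measured well enough to be tested. It had 162, 167 and 198 reads with the control hairpin and 262, 298 and 321 with shNUF2, a clear separation of the groups. F11R rose, its log2 fold change being 0.93, just inside the fold threshold (standard error 0.11, edgeR's quasi-likelihood test, Benjamini-Hochberg adjusted p = 3.83e-08). AL591806.3 shares 36.6% of its exonic bases on the same strand and had at most 1 read. JAM2 had 0 reads in all shNC libraries and 0, 2 and 5 with shNUF2, and JAM3 had at most 5 reads.

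Cingulin (CGN), the cytoplasmic protein that links the scaffolds to actin and microtubules, had the largest log2 fold change of the tested members from low counts. It had 23, 18 and 34 reads in control (shNC) libraries and 69, 75 and 66 with shNUF2. The groups were far apart, at 0.241 ± 0.0647 and 0.760 ± 0.107 FPKM (SD, n = 3). The log2 fold change was 1.68, a ratio of 3.20 (standard error 0.26, Benjamini-Hochberg adjusted p = 2.92e-06 in edgeR's quasi-likelihood test). On the log2 scale of FPKM plus 1, which understates the change of low genes, it was 0.50, below the fold threshold. Its paralog CGNL1 (paracingulin) had 0, 1 and 0 reads with the control hairpin and 9, 8 and 6 with shNUF2, too few for the test. The ratio was 26.3 after division by the TMM-scaled library sizes, with a 95% counting interval from 4.26 to 1082. CGN and CGNL1 were thus both higher in reads in every shNUF2 library than in any shNC library.

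Of the zonula occludens scaffolds, TJP3 fell and TJP1 did not pass. TJP3 (ZO-3) had 301, 322 and 309 reads in control (shNC) libraries and 201, 172 and 175 with shNUF2. Every shNUF2 library was lower, and TJP3 fell, its log2 fold change being -0.58 (standard error 0.12, edgeR's quasi-likelihood test, Benjamini-Hochberg adjusted p = 8.56e-05). TJP1 (ZO-1), the scaffold that starts strand assembly, had 693, 850 and 812 reads with the control hairpin and 630, 648 and 649 with shNUF2. After scaling these overlapped, and the log2 fold change was -0.10 with a 95% interval from -0.24 to 0.05. The FPKM ratio of TJP3 to TJP1 was 1.14 ± 0.0901 with shNC and 0.813 ± 0.085 with shNUF2, without overlap (SD, n = 3, exact permutation p = 0.10).

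Of the 4 polarity members, CRB3 and PATJ fell, PARD6B rose and PARD3 did not pass. CRB3, the small apical membrane protein of the Crumbs complex, had 133, 159 and 134 reads in control (shNC) libraries and 81, 83 and 62 with shNUF2, without overlap. CRB3 fell, its log2 fold change being -0.72 (standard error 0.18, Benjamini-Hochberg adjusted p = 0.00084 in edgeR's quasi-likelihood test), and CRB3P1 is an annotated pseudogene of it. PATJ, the scaffold with many PDZ domains that joins the Crumbs complex to TJP3 and claudins, had 649, 729 and 840 reads with the control hairpin and 549, 403 and 471 with shNUF2. PATJ fell, its log2 fold change being -0.45 (standard error 0.09, edgeR's quasi-likelihood test, Benjamini-Hochberg adjusted p = 5.53e-05).

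PARD6B, the adapter between CDC42 and atypical protein kinase C, had 276, 309 and 420 reads in control (shNC) libraries and 403, 374 and 366 with shNUF2. The highest shNC library overlapped the shNUF2 range, and PARD6B rose, its log2 fold change being 0.39 (standard error 0.10, Benjamini-Hochberg adjusted p = 0.0020 in edgeR's quasi-likelihood test). PARD3, the scaffold of the Par complex, had 600, 619 and 621 reads with the control hairpin and 562, 552 and 639 with shNUF2, with a log2 fold change of 0.12 and a 95% interval from -0.03 to 0.27.

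The wider junction was described with a further 40 tight junction and polarity genes, of which 33 were tested. Of these 14 rose, 10 fell and 9 did not pass, with a median log2 fold change of 0.09, and 25 of 33 did not overlap between the groups. These are 42.4% rising, 30.3% falling and 75.8% without overlap, near the 33.9%, 33.8% and 70.6% of all genes tested. ESAM (1.90), an endothelial adhesion molecule related to the JAMs, WNK4 (2.05), a kinase that acts on claudins, and BVES (1.43), a membrane protein of epithelial contacts, were called higher by their log2 fold changes (9.09% of the list, against 9.41% of all genes tested). PARD6A (-1.09), the paralog of PARD6B, was the 1 gene called lower (3.03% of the list, against 4.16% of all genes tested), with 61, 62 and 74 reads in control libraries and 12, 30 and 39 with shNUF2. Without shNUF2 replicate 1 no gene of this list was called lower. With limma on log2 of FPKM plus 1, only 1 gene of the list was called higher, and the same held with at least 1 CPM in every library. Chosen after their values were seen, as direct partners or paralogs of members, PRKCI (log2 fold change -0.77), PRKCZ (-0.75) and MPDZ (-0.83), a paralog of PATJ, were each lower in every shNUF2 library. Chosen in the same way, AFDN (0.75), a scaffold that binds TJP1, MPP5 (0.31), the scaffold between CRB3 and PATJ, and CDC42 (0.22), the partner of PARD6B, rose. AFDN, MPP5 and CDC42 were higher in every shNUF2 library after scaling. Picked by hand, these partners and paralogs do not show how partners moved as a set.

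Membrane proteins that bind claudins or act on them were listed with earlier results of these data known. Their shares are therefore a description and do not test the partners as a set. Of 12 such partners 11 were tested, 8 rose (72.7%, where 33.9% of all genes tested rose) and 0 fell (33.8% of all genes tested fell). The median log2 fold change was 0.69, where that of all genes tested was -0.01. PRSS8 (1.78), the protease prostasin, and EFNB1 (1.42), an ephrin that binds claudins, were called higher by their log2 fold changes (18.2% of the 11, against 9.41% of all genes tested). Without overlap were 72.7%, near the 70.6% of all genes tested. EPHA2 (0.87), a receptor kinase that phosphorylates CLDN4, and the tetraspanins CD9 (0.93) and CD81 (0.72) rose. EPCAM, the partner of CLDN7, had 60, 44 and 55 reads in control (shNC) libraries and 91, 66 and 68 with shNUF2, and rose, its log2 fold change being 0.69 (Benjamini-Hochberg adjusted p = 0.0083 in edgeR's quasi-likelihood test). CLDN7 and EPCAM thus differed in opposite directions.

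**Figure D4:**
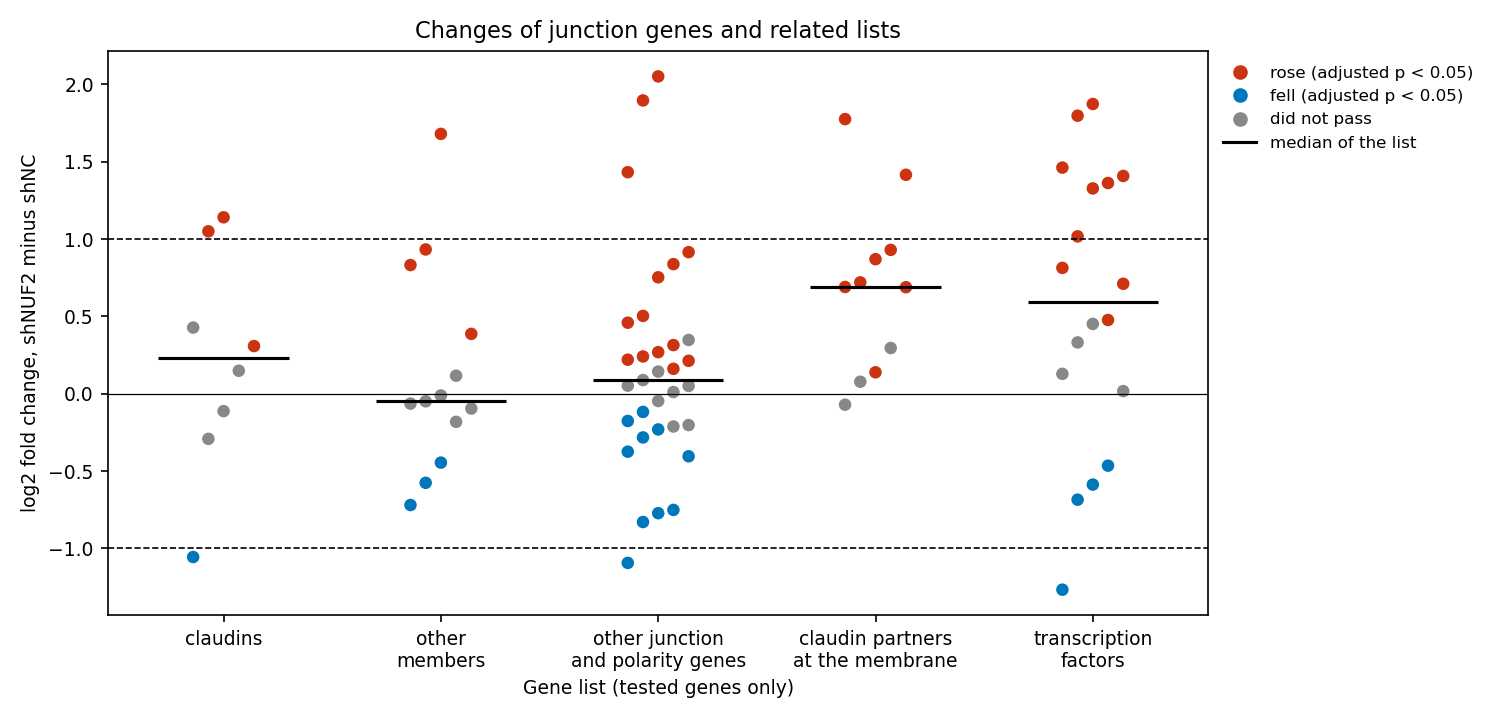
Log2 fold changes (vertical axis, shNUF2 minus shNC) of the tested claudins, the other members and 3 related gene lists; each point is a gene, black lines are list medians and dashed lines mark -1 and 1. The medians of the partners (0.69) and the transcription factors (0.59) lie above those of the claudins (0.23), the other members (-0.05) and the further junction genes (0.09).

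Transcription factors known to act on junction genes were measured in the same libraries. This list too was fixed with earlier results of these data known, so its shares do not test the factors as a set. Of 25 listed factors 18 were tested, 10 rose (55.6%, against 33.9% of all genes tested) and 4 fell (22.2%, against 33.8%). By size, 7 were called higher (38.9%, against 9.41% of all genes tested) and 1 lower (5.56%, against 4.16%), and the median log2 fold change was 0.59. With limma on log2 of FPKM plus 1 only 3 were called higher. Among the factors that bind the E-box and repress epithelial genes, SNAI2 had 168, 241 and 252 reads with the control hairpin and 730, 656 and 727 with shNUF2, a log2 fold change of 1.87. SNAI1 (1.33), ZEB2 (1.36) and TWIST1 (1.02, close to the threshold) were also called higher, and ZEB1 (0.71) rose without being called. GRHL1 (1.46), a grainyhead factor that activates epithelial genes, SOX9 (1.80) and TFAP2C (1.41) were called higher, and TFAP2A (-1.27), the paralog of TFAP2C, was called lower. Of the 4 factors that fell, those other than TFAP2A were not called and are not named. GRHL2, a known activator of CLDN4 and other junction genes, had at most 4 reads, OVOL1 and OVOL2 at most 5, and CDX2 0.

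The letters before the start sites of the members were searched on both strands for the E-box CAGGTG, which SNAI and ZEB factors are known to bind. RefSeq start sites on GRCh38.p14 were listed for 29 of the 41 members, some with several starts, and the 200 bases before each start were read. The E-box is present in 14.2% of all such windows and in at least 1 window of 17.0% of all genes with an entry. It was found in 9 of the 29 members. These were 4 of the 4 members that fell, 1 of 5 members that rose and had an entry, 2 of 7 that did not pass (TJP1 and CLDN18) and 2 of 13 that were not tested. This split was noticed after the values were seen and was not tested, members with several starts had more windows to match, and a match is a run of letters, not a site in use. The windows of the members that fell are shown with each E-box in capitals (CAGGTG, or CACCTG where it lies on the other strand), each as 200 bases 5′ to 3′ on the strand of the gene that end at the base before the start. Below them stand the windows of the claudins called higher, CLDN4 and CLDN12, which hold none. Both windows lie inside the gene spans given above, so what they hold depends on which start was listed. The member that rose and has an E-box is OCLN, with 1 in each window of its 2 listed starts, not printed here.
CLDN7 (chr17:7262479-7262678, minus strand): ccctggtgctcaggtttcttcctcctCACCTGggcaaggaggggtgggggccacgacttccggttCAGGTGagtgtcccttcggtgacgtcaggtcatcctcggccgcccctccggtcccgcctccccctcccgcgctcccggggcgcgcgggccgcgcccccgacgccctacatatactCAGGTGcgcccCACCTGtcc
CRB3 (chr19:6464071-6464270, plus strand): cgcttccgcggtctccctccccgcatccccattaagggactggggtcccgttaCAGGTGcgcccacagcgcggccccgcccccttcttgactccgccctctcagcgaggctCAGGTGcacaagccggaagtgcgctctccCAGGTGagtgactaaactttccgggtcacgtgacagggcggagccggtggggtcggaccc
PATJ (chr1:61742280-61742479, plus strand): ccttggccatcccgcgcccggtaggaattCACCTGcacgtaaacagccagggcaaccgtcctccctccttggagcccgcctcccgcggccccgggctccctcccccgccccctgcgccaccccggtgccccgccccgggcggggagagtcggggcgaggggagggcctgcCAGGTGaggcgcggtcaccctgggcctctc
TJP3 (chr19:3721537-3721736, plus strand): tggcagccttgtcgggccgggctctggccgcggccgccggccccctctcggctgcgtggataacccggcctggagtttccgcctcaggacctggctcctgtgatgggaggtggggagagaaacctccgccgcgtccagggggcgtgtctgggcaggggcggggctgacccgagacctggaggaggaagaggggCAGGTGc
CLDN4 (chr7:73830796-73830995, plus strand): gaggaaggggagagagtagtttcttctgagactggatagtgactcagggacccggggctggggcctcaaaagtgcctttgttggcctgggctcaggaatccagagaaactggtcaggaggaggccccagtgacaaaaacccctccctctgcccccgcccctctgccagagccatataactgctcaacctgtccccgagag
CLDN12 (chr7:90403261-90403460, plus strand): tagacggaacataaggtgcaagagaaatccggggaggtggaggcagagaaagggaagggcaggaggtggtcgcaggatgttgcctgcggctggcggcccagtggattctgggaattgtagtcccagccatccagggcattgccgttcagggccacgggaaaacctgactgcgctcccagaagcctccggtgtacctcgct

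The CLDN7 window holds 4 E-boxes, which begin 174, 135, 20 and 9 bases before the start, and it belongs to the second of its listed starts, while the window of the other start holds none. The CRB3 window holds 3, at 147, 89 and 60 bases, and the PATJ window 2, at 171 and 30 bases. TJP3 has 1, at 7 bases before the second of its starts. None of these E-boxes overlaps a match of the other letters searched. Those were GCCNNNGGC (the letters of AP-2 factors, in 17.0% of all windows), GGGCGG (the GC box of SP1, in 40.1%) and AACCGGTT (grainyhead, in 0.0854%), on both strands. Counted by gene, the grainyhead letters were found in 0 of 29 members (0.106% of all genes with an entry), AP-2 letters in 9 of 29 (20.03% of all genes) and GC boxes in 18 of 29 (43.9% of all genes).

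Markers of other cell types were also measured, since ESAM is among them. Of 7 endothelial markers 4 were tested, and CDH5, TEK and ESAM rose (75.0% of the 4, against 33.9% of all genes tested). The remaining tested marker did not pass, with a log2 fold change of -0.02. The summed level of the 7 markers was 2.23 to 2.92 FPKM with shNC and 8.12 to 10.1 FPKM with shNUF2, with KDR at 0 reads in all but 1 library and VWF at most 6. For 7 leukocyte markers with too few reads to be tested, the summed level was 0.229 to 0.334 FPKM with shNC and 0.709 to 0.920 FPKM with shNUF2, with CD3E at 0 in all but 1 library. The summed level of 8 fibroblast markers was 9.44 to 10.1 FPKM with shNC and 7.36 to 8.24 FPKM with shNUF2, with DCN higher and COL1A1 lower and PDGFRA at 0 throughout. CLDN5, the claudin of endothelial cells, had at most 5 reads in any library. The part of these cell types in the changes of the junction genes was not tested.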

How the data were processed

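The RNA libraries were made with a stranded mRNA kit by a sequencing company for the study, 3 with shNC and 3 with shNUF2. The authors deposited read counts per gene without normalization, and FPKM values that equal the deposited count divided by gene length and total count. The submitters' processing notes name cutadapt, HISAT, HTSeq and GRCh38.p13. Program versions, the annotation release and the strand and overlap settings are not given in the sources used here. No per-sample column was left out (0 unused).

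Counts were tested with edgeR 4.0.16 in R 4.3.3 (filterByExpr, TMM, quasi-likelihood test, no covariate) over 12874 genes, with Benjamini-Hochberg adjustment over all of them. A call needed a log2 fold change above 1 or below -1 and an unadjusted p under 0.05, while rose and fell need an adjusted p under 0.05. Standard errors were obtained from the quasi-likelihood F statistic, whose square root was taken as the ratio of estimate to error. Overlap of groups was judged on CPM of the TMM-scaled library. Claudin shares and ratios were compared by exact permutation. Intervals of reads cover counting error only. The fit was tested on simulated data at a log2 fold change of 2 in either direction, where edgeR recovered 198 of 200 changed genes among 12763 and made 3 false calls. Exon overlaps were taken from GENCODE release 29, and promoter windows from RefSeq on GRCh38.p14.

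The members and lists were chosen with earlier results of these data known. All tested members but 1 are named (this member is counted but not reported here, and 1 leukocyte marker, which was tested and rose, is left out of that list's values), and untested members with over 3 reads in a library. Of the related lists, called genes are named or the 4 with the smallest p, with exceptions named in the text. Alternatives were other scalings, DESeq2 1.42.0, limma 3.58.1 on log2 of FPKM plus 1 or 0.1, edgeR's TREAT test, other filters, adjusted p, a replicate block, read-based shares and each library left out in turn.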

Additional observations from a re-analysis of the deposited data

How the results depend on the processing

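CLDN4 and its direction of change were called in all 17 alternative fits, and CLDN7, CLDN12 and CGN in all fits but those named here or in the report. The number of members called higher was 1 instead of 3 with limma on log2 of FPKM plus 1, which lost CLDN12 (0.91) and CGN (0.50), and 6 with no filter, which added CGNL1, CLDN6 and JAM2. The TREAT test lost CLDN12 and CLDN7 (adjusted p = 0.86 and 0.94 in that test, and 0.099 for CLDN4, called there by its unadjusted p), so that 2 members were called higher and 0 lower. Leaving out 1 library at a time gave 2 to 4 members called higher and 0 to 1 lower. Among the other junction and polarity genes, called higher was 1 with limma on FPKM plus 1, 6 with no filter and 1 with at least 1 CPM in every library, and called lower was 0 with limma on FPKM plus 1, 0 with TREAT and 0 with at least 1 CPM, and 0 to 1 with a library left out. Transcription factors called higher numbered 3 instead of 7 with limma on FPKM plus 1. By summed reads instead of FPKM, the change in share was -15.0 percentage points for CLDN7, 10.9 for CLDN12 and -3.30 for CLDN1, the last reversed from 1.65. Changes near 0 changed sign in members that did not pass. That of LSR was 0.011 with at least 1 CPM and -0.16 to 0.090 with a library left out, those of MARVELD2 -0.22 to 0.084, MARVELD1 -0.10 to 0.037 and CLDN20 -0.33 to 0.44. The cause was not tested. OCLN had an adjusted p over 0.05 with limma (0.055 and 0.053) and 0.0056 to 0.12 with a library left out. Over all genes, 430 and 206 were called higher and lower with limma on FPKM plus 1, 1770 and 634 with no filter, and 756 and 397 with at least 1 CPM, instead of 1212 and 536. Libraries with the same replicate number did not deviate together (correlations 0.02, 0.00 and -0.03). The fit with the replicate block called 4 members, as without it, with log2 fold changes of 1.14 for CLDN4, 1.05 for CLDN12, 1.68 for CGN and -1.06 for CLDN7. Depth limits the untested members, all with at most 11 reads in a library.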
